A study of Mus musculus with 13 samples.

Results

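The gene for p53, Trp53, and 9 genes that p53 is known to switch on were followed in the right ventricle of mice: Cdkn1a, Mdm2, Ccng1, Phlda3, Bax, Bbc3, Trp53inp1, Sesn1 and Sesn2. They were chosen by name, as textbook members of the pathway, with earlier results of these data known. All 10 were found among the 26264 genes listed. The tissue came from wild-type mice (6 libraries) and from mice with the F536C substitution knocked into Dsg2 (7 libraries), the gene of the desmosomal cadherin desmoglein 2, as a model of arrhythmogenic cardiomyopathy. Neither group is labelled with a treatment. Zygosity, strain, age, sex and litter are not in the labels, and nothing in them ties a library to its own mouse. The p-values therefore cover the spread between these libraries only, which may be technical. The title of the series asks about PPAR-gamma signalling in this disease.

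p53 is a transcription factor that is kept low in unstressed cells by MDM2, a ubiquitin ligase, and by the related MDM4. DNA damage, oxidative stress and other insults stabilise the protein, so p53 activity is set mostly after transcription and is usually read from its target genes. Those targets stop the cell cycle, trigger or restrain cell death, slow growth signalling and, through Mdm2 itself, switch the pathway off again, and many of them also answer to other factors.

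The libraries held 14498336 to 29848597 estimated reads, and the 10 genes had 31 to 44774 reads in a library. Knock-in 4, 5 and 6 stood apart: non-whole values made up 10.2% to 10.7% of their gene table, where the other 10 libraries had 3.07% to 3.79%, and the epithelial keratin gene Krt8 was at 909 to 1189.6 CPM (counts relative to library size after TMM scaling) against at most 6.38 CPM elsewhere. All 130 read numbers of the 10 genes were whole, in those 3 libraries too. Each result is therefore given for all 13 libraries and for the 10 without knock-in 4, 5 and 6. Within each group no library was a copy of another: in the most similar of these pairs, wild type 3 and 6, chi-square divided by its degrees of freedom was 7.52. Dsg2 was lower in all 7 knock-in libraries (33.4 to 61.9 CPM) than in any wild-type library (84.3 to 116 CPM). Of 8 cardiomyocyte markers, 7 fell and 1, Nppa, rose with 13 libraries, and their sum lay at 51906 to 77544 CPM in the wild-type libraries, at 22120 to 43817 CPM in the knock-in libraries. Fewer cells of a type and less RNA per cell cannot be told apart in such bulk tissue.

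Promoter windows show what the genes share in sequence beyond their names. The RefSeq table for GRCm38.p6, an older build than the GRCm39 named for the read tables, held windows of 300 bases, from 250 before to 50 after a start, for 9 of the 10 genes and 13 of their starts. The p53 half-site consensus, which is its own reverse complement so that the search covers both strands, matched exactly in 6 of the 13 windows, each of a different gene, against 8.36% of 32851 windows of all genes. A full p53 site, here 2 half-sites with no bases between them, the C and G of each core in place and at most 2 mismatches in all, was in 2 windows, those of Cdkn1a and Ccng1, against 0.326% of all windows. Windows of 4 genes are printed 5′ to 3′, with every base of a half-site or full site in capitals, because these genes went different ways in the knock-in: Cdkn1a and Bax were higher, Ccng1 was lower and Mdm2 was not called.
Cdkn1a, chr17:29090729-29091028, plus strand, the upstream of 2 starts: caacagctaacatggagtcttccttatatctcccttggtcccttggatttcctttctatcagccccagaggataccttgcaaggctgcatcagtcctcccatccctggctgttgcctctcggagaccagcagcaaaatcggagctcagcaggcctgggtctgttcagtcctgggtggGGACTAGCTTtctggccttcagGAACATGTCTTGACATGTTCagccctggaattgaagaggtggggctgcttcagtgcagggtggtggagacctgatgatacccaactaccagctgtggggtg
Ccng1, chr11:40755237-40755536, minus strand: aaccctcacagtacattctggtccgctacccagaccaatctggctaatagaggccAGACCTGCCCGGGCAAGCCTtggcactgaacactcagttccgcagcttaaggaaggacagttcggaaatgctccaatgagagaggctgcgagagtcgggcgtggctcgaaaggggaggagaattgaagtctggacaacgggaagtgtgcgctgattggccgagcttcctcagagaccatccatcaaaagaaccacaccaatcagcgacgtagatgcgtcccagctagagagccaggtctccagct
Bax, chr7:45466849-45467148, minus strand: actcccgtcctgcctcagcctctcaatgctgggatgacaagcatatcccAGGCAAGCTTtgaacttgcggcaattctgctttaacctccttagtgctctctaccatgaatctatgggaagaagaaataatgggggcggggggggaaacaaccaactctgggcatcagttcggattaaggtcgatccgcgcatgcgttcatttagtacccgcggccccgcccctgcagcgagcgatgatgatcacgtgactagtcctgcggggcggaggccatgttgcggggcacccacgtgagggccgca
Mdm2, chr10:117710709-117711008, minus strand: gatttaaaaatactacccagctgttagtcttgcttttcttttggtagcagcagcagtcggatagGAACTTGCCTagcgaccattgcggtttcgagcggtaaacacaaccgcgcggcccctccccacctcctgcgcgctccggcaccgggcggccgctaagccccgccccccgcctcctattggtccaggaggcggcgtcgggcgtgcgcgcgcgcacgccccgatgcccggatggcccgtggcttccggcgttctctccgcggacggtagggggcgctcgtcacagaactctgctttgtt
The full site of Cdkn1a, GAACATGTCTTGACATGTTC, starts 51 bases before the start and has 1 mismatch to the consensus. That of Ccng1, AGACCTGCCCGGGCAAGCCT, starts 195 bases before its start and also has 1 mismatch. The half-site of Bax lies 201 and that of Mdm2 186 bases before the start, and exact half-sites were also found 75 bases before the start of Trp53 and 173 bases before the downstream start of Sesn1. The windows of Phlda3, Bbc3 and Sesn2 held no match to these letters, nor did those of the downstream start of Cdkn1a and the upstream start of Sesn1. A match is a description of the sequence, and binding was not measured.

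With 13 libraries, 5 of the 10 genes rose in the knock-in (Cdkn1a, Phlda3, Bax, Bbc3 and Sesn2), 2 fell (Ccng1 and Sesn1) and 3 did not pass the test, an adjusted p under 0.05. Of all 14588 tested genes, 23.6% passed as higher, 21.0% as lower and 44.6% in either direction, so 7 calls in 10 is to be read against a background in which nearly every other gene is called. With 10 libraries 6 rose (Trp53, Cdkn1a, Phlda3, Bax, Trp53inp1 and Sesn2) and 1 fell (Ccng1), against 22.3% higher, 21.3% lower and 43.7% in either direction of 14518 genes. Cdkn1a, Phlda3, Bax, Sesn2 and Ccng1 were called the same way in both sets. The median log2 fold change of the 10 genes was 0.36 and 0.34, beside 0.08 and 0.02 for all tested genes. The knock-in libraries were above every wild-type library for 2 of the 10 genes with 13 libraries (8.60% of all tested genes) and for 5 with 10 (14.8%). They were below every wild-type library for 0 of the 10 genes in both sets, against 10.5% and 15.0% of all tested genes. When libraries were scaled by their totals alone, the median over all tested genes moved to 0.33 and 0.26. Then 7 of the 10 genes were higher and 1 lower with 13 libraries, against 6110 higher and 1661 lower of all 14588 tested genes. With 10 libraries 8 were higher and 1 lower, against 6049 higher and 1528 lower of 14518. Calls of small size thus depend on the scaling.

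**Figure D1:**
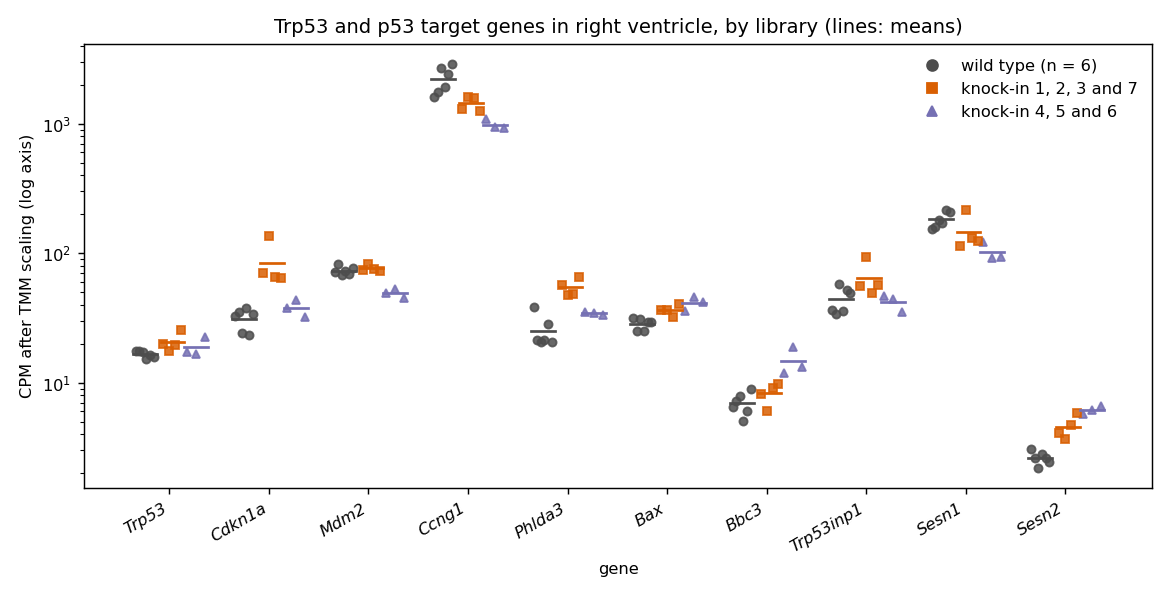
CPM of the 10 genes in each library, on a log axis, for wild type (circles), knock-in 1, 2, 3 and 7 (squares) and knock-in 4, 5 and 6 (triangles), with lines at the means. For Bax and Sesn2 all 7 knock-in libraries lie above all 6 wild-type libraries, while Cdkn1a is at 64.0 to 136 CPM in knock-in 1, 2, 3 and 7 but at 32.3 to 43.2 CPM in knock-in 4, 5 and 6.

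Levels between genes were compared per length, in TPM, which divides reads by gene length and then by the library sum. In wild type Ccng1 was by far the most abundant at 743 ± 132 TPM (SD, n = 6), followed by Sesn1 at 77.1 ± 5.71, Bax at 44.8 ± 4.49 and Mdm2 at 27.7 ± 4.59 TPM. Phlda3 (22.6 ± 7.46 TPM) and Cdkn1a (19.3 ± 5.04 TPM) could not be ordered, since Phlda3 was the higher in 3 of 6 libraries. Trp53 (11.1 ± 1.58 TPM) lay above Trp53inp1 (9.05 ± 1.58 TPM) in 5 of 6, and Bbc3 (5.29 ± 1.30 TPM) and Sesn2 (1.12 ± 0.214 TPM) were lowest. In the knock-in Phlda3 and Cdkn1a stood above Mdm2: Cdkn1a exceeded Mdm2 in 7 of 7 knock-in libraries, at 51.9 ± 25.7 against 32.6 ± 6.32 TPM (SD, n = 7). Bax exceeded Sesn1 in 5 of 7 knock-in libraries, where Sesn1 had exceeded Bax in all 6 wild-type ones. Among knock-in 1, 2, 3 and 7 these genes could not be ordered. Sesn1 was the higher in 2 of 4 libraries, at 80.9 ± 22.2 against 75.7 ± 8.23 TPM (SD, n = 4). TPM is relative to everything else in a library, so these places say nothing of absolute amounts.

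Trp53 itself differed little. Wild-type libraries held 15.2 to 17.5 CPM with a median of 16.8, knock-in 1, 2, 3 and 7 held 19.8, 17.7, 19.7 and 25.5 CPM, and knock-in 4, 5 and 6 held 17.4, 16.6 and 22.5 CPM. Knock-in 7 was the highest library, and knock-in 4 and 5 lay inside the wild-type range. The log2 difference was 0.26 ± 0.11 (SE, adjusted p = 0.0724, by edgeR's quasi-likelihood F statistic, Benjamini-Hochberg adjusted over all tested genes, as for every adjusted p below unless another tool is named), and Trp53 rose by 0.32 ± 0.10 (SE, adjusted p = 0.0231) with 10 libraries. That call was lost without knock-in 7 (0.19, adjusted p = 0.116) and without wild type 4 (adjusted p = 0.0508). With 13 libraries Trp53 did pass with library totals (0.51, adjusted p = 0.00577), with limma-voom (0.32, adjusted p = 0.00702) and on log2(TPM + 1) values in limma (0.62, adjusted p = 0.00118). It passed by a narrow margin with DESeq2 (0.27, adjusted p = 0.0497), with an indicator for knock-in 4, 5 and 6 (0.32, adjusted p = 0.0475) and without wild type 2 or knock-in 5 (adjusted p = 0.0474 and 0.0438).

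Mdm2, the feedback inhibitor and one of the best known p53 targets, did not pass in either set. It lay between 68.4 and 81.8 CPM in wild type, with a median of 71.8, and at 73.6, 83.0, 75.6 and 73.2 CPM in knock-in 1, 2, 3 and 7. Those 4 libraries lay within the wild-type range or, in knock-in 2, just above it. Knock-in 4, 5 and 6, at 49.6, 53.1 and 45.2 CPM, lay below every wild-type library. The log2 difference was -0.18 ± 0.14 (SE, adjusted p = 0.315) and, with 10 libraries, 0.06 ± 0.08 (SE, adjusted p = 0.560), with an interval of 1.96 SE from -0.09 to 0.21. The direction with 13 libraries turned with library totals (0.07), and with 10 libraries Mdm2 passed as higher with library totals (0.30, adjusted p = 0.0136). Mdm4, which binds and restrains p53 and is not among the 10 genes, averaged 85.2 ± 11.0 CPM in wild-type and 77.4 ± 16.7 CPM in mutant libraries (SD, n = 6 and 7), a log2 difference of -0.14 ± 0.14 and 0.08 ± 0.10 (SE, adjusted p = 0.437 and 0.565), which library totals turned with 13 libraries (0.10) and raised past the threshold with 10 (0.32, adjusted p = 0.0401). The log2 ratio of Mdm2 to Mdm4 within a library, in TPM, does not depend on the scaling between libraries. It was 1.13 ± 0.19 in wild type and 1.06 ± 0.12 in knock-in (SD, n = 6 and 7), a difference of -0.07 (exact permutation test, two-sided, p = 0.437), and of -0.04 with 10 libraries (exact permutation p = 0.686).

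Cdkn1a encodes p21, the inhibitor of cyclin-dependent kinases through which p53 arrests the cell cycle, and it rose in both sets. Wild-type libraries lay between 23.5 and 37.9 CPM, with a median of 33.4. Knock-in 1, 2, 3 and 7 were at 69.8, 136, 66.1 and 64.0 CPM, and knock-in 4, 5 and 6 at 38.0, 43.2 and 32.3 CPM. The first 4 lay above all wild-type libraries, while knock-in 6 lay inside the wild-type range and knock-in 4 and 5 at or just above its upper end. Cdkn1a was 2.05-fold higher with 13 libraries (log2 fold change 1.04 ± 0.29 SE, adjusted p = 0.0117) and 2.68-fold higher with 10 (1.42 ± 0.22 SE, adjusted p = 0.000393). Knock-in 2 carried part of this: without it the log2 fold changes were 0.74 (adjusted p = 0.00986) and 1.08 (adjusted p = 0.000101), below those of Phlda3 (0.86 and 1.17). Knock-in 2 was also the library with Ucp1, a brown fat gene, at 37.9 CPM, against at most 2.98 CPM elsewhere. The fat markers Adipoq, at 43.2 CPM (wild type 7.502 to 70.9), and Plin1, at 13.5 CPM (wild type 2.12 to 24.3), lay inside the wild-type range there. Both were above every other knock-in library. Adipoq was at 5.37 to 28.7 CPM in knock-in 1, 3 and 7 and at 2.23 to 14.3 CPM in knock-in 4, 5 and 6. Plin1 was at 1.97 to 10.4 CPM and 1.19 to 8.49 CPM in the same libraries. The sum of 6 adipocyte markers was 987 to 2041 CPM in knock-in 1, 2, 3 and 7, against 1218 to 1885 CPM in wild type. The part of fat in the p53 genes of knock-in 2 was not tested.

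Phlda3, which encodes a pleckstrin-homology protein that opposes AKT at the membrane, followed Cdkn1a. It lay between 20.5 and 38.5 CPM in wild type, with a median of 21.3, and at 56.7, 47.4, 48.7 and 65.4 CPM in knock-in 1, 2, 3 and 7. In knock-in 4, 5 and 6 it was at 35.3, 34.6 and 33.1 CPM, inside the wild-type range only because of wild type 1, at 38.5 CPM. The rise was 1.83-fold with 13 libraries (0.87 ± 0.20 SE on the log2 scale, adjusted p = 0.00348) and 2.17-fold with 10 (1.12 ± 0.17 SE, adjusted p = 0.000284).

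Ccng1, which encodes cyclin G1, a cyclin that recruits phosphatase activity to MDM2, went the other way. Its promoter window held a full p53 site, whose binding was not measured. Wild-type libraries lay between 1614 and 2880.1 CPM, with a median of 2175, and knock-in 1, 2, 3 and 7 at 1309, 1617, 1587 and 1247 CPM. Knock-in 4, 5 and 6 were lowest, at 1079, 938 and 933 CPM. Knock-in 2 alone was above the lowest wild-type library, by a few CPM, and 6 of 7 knock-in libraries were below it. Ccng1 was 1.78-fold lower (-0.83 ± 0.18 SE on the log2 scale, adjusted p = 0.00230) and 1.54-fold lower with 10 libraries (-0.62 ± 0.18 SE, adjusted p = 0.0115). With limma on log2(TPM + 1) the 10 libraries gave -0.21 (adjusted p = 0.158), which ended the call. Cardiomyocyte markers fell over the same libraries, as given above, and their part in the fall of Ccng1 was not tested.

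**Figure D2:**
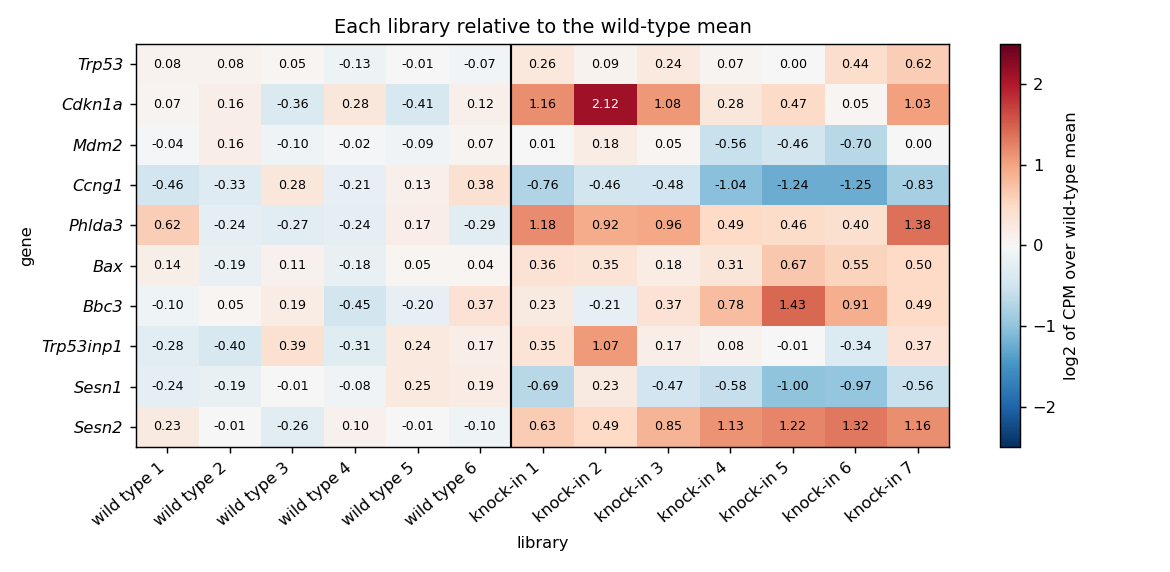
Log2 of each library's CPM over the wild-type mean for the 10 genes (rows) in the 13 libraries (columns), with a line between wild type and knock-in. Cdkn1a reaches 2.12 in knock-in 2 and 1.03 to 1.16 in knock-in 1, 3 and 7 but 0.05 to 0.47 in knock-in 4, 5 and 6, whereas Bbc3 and Sesn2 are at 0.78 to 1.43 in those last 3 libraries.

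Among the cell death genes, Bax showed the most uniform rise. BAX forms pores in the outer mitochondrial membrane during apoptosis. Bax was between 25.1 and 31.5 CPM in wild type, with a median of 29.4, at 36.5, 36.5, 32.4 and 40.4 CPM in knock-in 1, 2, 3 and 7, and at 35.5, 45.5 and 41.8 CPM in knock-in 4, 5 and 6. All 7 knock-in libraries lay above all 6 wild-type ones. The change was small, 1.34-fold (0.43 ± 0.10 SE on the log2 scale, adjusted p = 0.00406) and 1.28-fold with 10 libraries (0.36 ± 0.09 SE, adjusted p = 0.00643).

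Bbc3 encodes PUMA, a BH3-only protein that neutralises the protective BCL2 proteins. Its rise came with knock-in 4, 5 and 6, at 11.9, 18.8 and 13.1 CPM, which lay above every wild-type library (5.11 to 9.01 CPM, median 6.87). Knock-in 1, 2, 3 and 7 were at 8.19, 6.05, 9.05 and 9.78 CPM and overlapped with wild type. Bbc3 was 1.58-fold higher with 13 libraries (0.66 ± 0.23 SE on the log2 scale, adjusted p = 0.0318), and at 0.25 ± 0.17 (SE, adjusted p = 0.248) with 10, where it passed with library totals (0.51, adjusted p = 0.0274). The call with 13 libraries was also lost without wild type 1, 4 or 5 (adjusted p = 0.0569, 0.0666 and 0.0618) or without knock-in 4, 5 or 6 (adjusted p = 0.0505, 0.0630 and 0.0513). An indicator for knock-in 4, 5 and 6 (0.25, adjusted p = 0.312) ended it as well. So did limma-voom (0.38, adjusted p = 0.0717) and replicate number as a block (0.61, adjusted p = 0.0873).

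Trp53inp1, a nuclear cofactor of p53 that also acts in autophagy, was between 33.6 and 57.9 CPM in wild type, with a median of 43.1. Knock-in 2 stood out at 92.9 CPM, beside 56.2, 49.7 and 57.1 CPM in knock-in 1, 3 and 7 and 46.8, 43.9 and 34.9 CPM in knock-in 4, 5 and 6. All knock-in libraries but knock-in 2 lay within the wild-type range. The log2 difference was 0.30 ± 0.21 (SE, adjusted p = 0.243), and Trp53inp1 passed as higher with 10 libraries (0.53 ± 0.20 SE, adjusted p = 0.0425). That fell to 0.29 (adjusted p = 0.164) when knock-in 2 was left out, and the call was also lost without wild type 1, 2 or 4 (adjusted p = 0.0758, 0.0812 and 0.0800) or knock-in 1 or 7 (adjusted p = 0.0568 and 0.0587).

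Relative to Bcl2, Bax fell. Bcl2, the founding survival gene of its family and not among the 10 genes, rose from 14.7 ± 2.32 to 30.1 ± 5.23 CPM (SD, n = 6 and 7), with log2 fold changes of 1.03 ± 0.14 and 1.16 ± 0.12 (SE, adjusted p = 9.64e-05 and 1.10e-05). It was above every wild-type library in 7 of 7 knock-in libraries. The log2 ratio of Bax to Bcl2 in TPM lay between 3.89 and 4.55 in wild type and at 3.51, 3.38, 3.47 and 3.77 in knock-in 1, 2, 3 and 7. In knock-in 4, 5 and 6 it was 3.83, 3.83 and 4.22. The mean fell from 4.33 ± 0.24 to 3.72 ± 0.29 (SD, n = 6 and 7), a difference of -0.61 (exact permutation test, two-sided, p = 0.00350), and of -0.80 with 10 libraries (exact permutation p = 0.00476, the smallest this design can give). Of 16 genes of the BCL2 family other than Bax and Bbc3, 13 libraries gave 6 higher and 3 lower and 10 libraries gave 7 higher and 2 lower, with medians of 0.03 and 0.16 beside 0.08 and 0.02 for all genes. The shares of all tested genes were 23.6% higher and 21.0% lower with 13 libraries and 22.3% and 21.3% with 10, so the count of lower calls was near or under the background. The pore-forming relative Bok rose by 0.84 ± 0.15 and 1.00 ± 0.14 (log2, SE, adjusted p = 0.000632 and 0.000102). The BH3-only gene Bik fell by 0.90 ± 0.17 and 0.68 ± 0.15 (log2, SE, adjusted p = 0.00106 and 0.00242), the second of which was lost with limma on log2(TPM + 1) (-0.26, adjusted p = 0.0883). The others called lower, named after their values were seen, were the BH3-only genes Bcl2l11 in both sets (-0.64 and -0.67, adjusted p = 0.00350 and 0.00235) and Hrk with 13 libraries (-1.16, adjusted p = 0.0280). Other BH3-only genes, also named after their values were seen, were higher in both sets. These were Pmaip1 (1.47 and 1.89, adjusted p = 0.00788 and 0.000533) and Bid (0.78 and 1.07, adjusted p = 0.0152 and 0.000514). Bcl2l1 (1.13 and 0.77) and Bcl2a1d (2.19 and 2.54) were higher in both sets too, while Mcl1 and Bcl2l2 were called in neither.

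**Figure D3:**
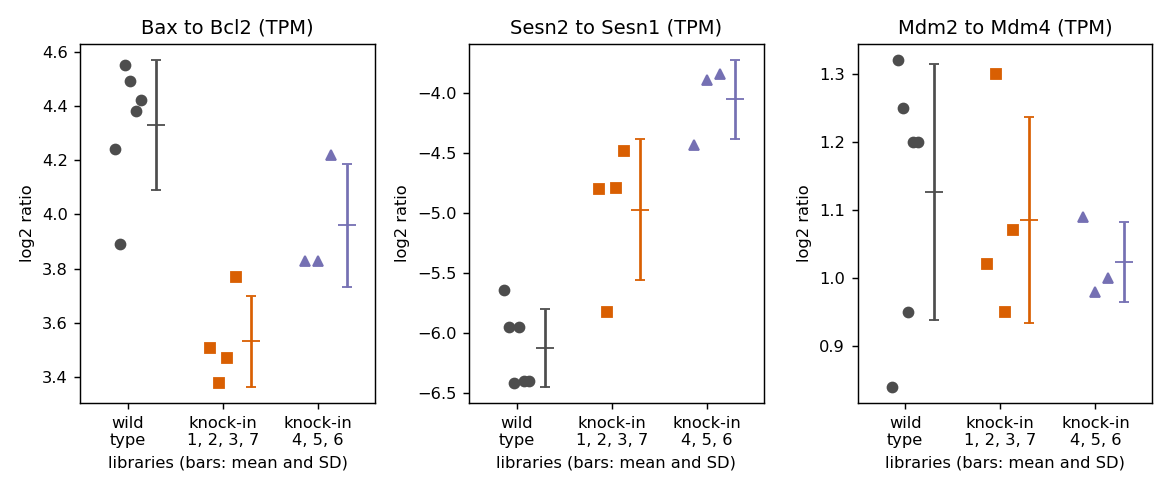
Log2 ratios of TPM within each library, with the mean and SD beside the points, for Bax to Bcl2, Sesn2 to Sesn1 and Mdm2 to Mdm4. All knock-in libraries but knock-in 6 lie below all wild-type libraries for Bax to Bcl2. For Sesn2 to Sesn1, 6 of 7 knock-in libraries lie above all wild-type ones, and the groups overlap for Mdm2 to Mdm4.

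The sestrins are stress proteins that restrain the growth kinase complex mTORC1. Sesn2 rose in both sets, and Sesn1 fell with 13 libraries but did not pass with 10. Sesn2, which senses leucine and also responds to other stress factors such as ATF4 and NRF2, was scarce, at 2.20 to 3.07 CPM in wild type with a median of 2.61. It was at 4.07, 3.69, 4.72 and 5.86 CPM in knock-in 1, 2, 3 and 7 and at 5.73, 6.13 and 6.56 CPM in knock-in 4, 5 and 6. All 7 knock-in libraries were above all wild-type ones. Sesn2 was 2.00-fold higher with 13 libraries (1.00 ± 0.17 SE on the log2 scale, adjusted p = 0.000482) and 1.75-fold higher with 10 (0.80 ± 0.17 SE, adjusted p = 0.00210), on 31 to 64 reads in wild type and 67 to 209 in knock-in.

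Sesn1, the abundant sestrin of muscle, was between 154 and 217 CPM in wild type, with a median of 177. It was at 113, 132 and 124 CPM in knock-in 1, 3 and 7, at 122, 91.3 and 92.8 CPM in knock-in 4, 5 and 6, and at 214 CPM in knock-in 2. Knock-in 2 was thus near the top of the wild-type range and the other 6 below its lower end. Sesn1 was 1.44-fold lower with 13 libraries (-0.52 ± 0.18 SE on the log2 scale, adjusted p = 0.0285), a call lost without wild type 5 or 6 or knock-in 5 (adjusted p = 0.0703, 0.0645 and 0.0533) and with library totals (-0.27, adjusted p = 0.154). An indicator for knock-in 4, 5 and 6 (-0.32, adjusted p = 0.147) and replicate number as a block (-0.57, adjusted p = 0.065) also ended that call. With 10 libraries Sesn1 was at -0.32 ± 0.17 (SE, adjusted p = 0.132), at -0.58 (adjusted p = 0.00275) without knock-in 2, and at 0.04 with limma on log2(TPM + 1). With limma-voom it passed as lower in these 10 libraries (-0.51, adjusted p = 0.0056). The log2 ratio of Sesn2 to Sesn1 in TPM rose from -6.13 ± 0.33 to -4.58 ± 0.67 (SD, n = 6 and 7), a difference of 1.55 (exact permutation test, two-sided, p = 0.00175), and of 1.15 with 10 libraries (exact permutation p = 0.00952). Knock-in 2, at -5.83, was the 1 knock-in library inside the wild-type range of -6.42 to -5.64.

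**Figure D4:**
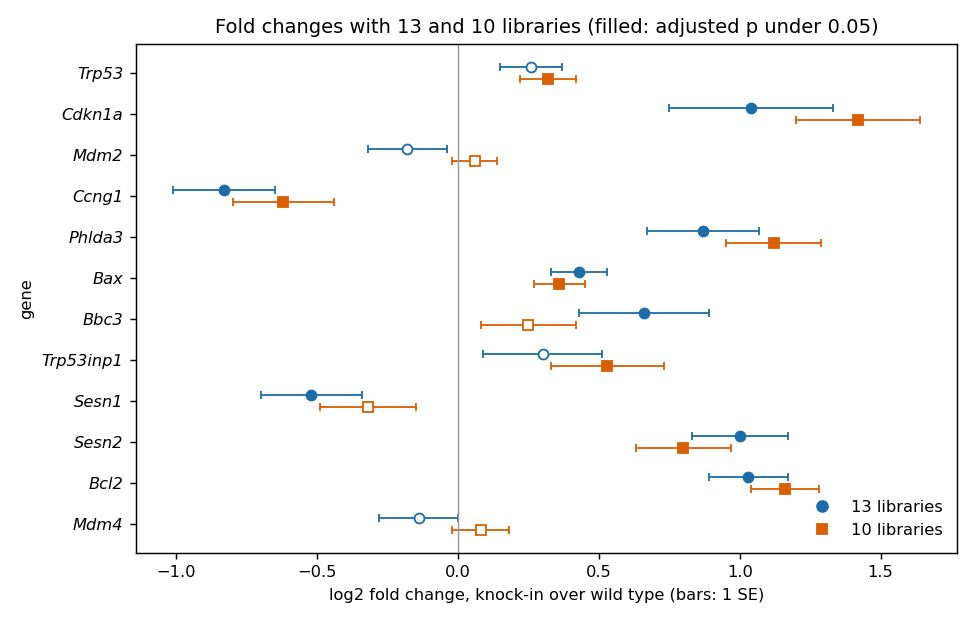
Log2 fold changes of the 10 genes and of Bcl2 and Mdm4 with 13 libraries (circles) and 10 libraries (squares), with bars of 1 SE and filled symbols where the adjusted p was under 0.05. Cdkn1a, Phlda3, Bax and Sesn2 lie to the right of 0 and Ccng1 to the left in both sets, and Mdm2 and Mdm4 lie near 0.

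Other genes of the pathway were described by lists, whose counts are to be read against all tested genes, of which 23.6% were higher and 21.0% lower with 13 libraries and 22.3% and 21.3% with 10. Of 36 tested genes in a list of 38 other p53 targets, 13 libraries gave 13 higher and 6 lower and 10 libraries gave 14 higher and 6 lower, with medians of 0.31 and 0.19. In both sets 11 were higher and 3 lower, and the 3, named after their values were seen, were the ubiquitin ligase gene Fbxw7 (-1.05 and -1.02), the phosphatase gene Ptp4a3 (-0.78 and -0.65) and the adenylate kinase gene Ak1 (-0.76 and -0.57). Gdf15, a stress hormone, rose from 0.685 ± 0.314 to 11.4 ± 3.24 CPM (SD, n = 6 and 7), with log2 fold changes of 4.04 and 4.13 (adjusted p = 1.67e-06 and 6.79e-07). The polo-like kinase gene Plk2 rose by 1.24 and 1.21 (adjusted p = 2.49e-05 and 1.05e-05) and Psrc1, which acts on the mitotic spindle, by 2.31 and 2.01 (adjusted p = 7.23e-05 and 4.57e-05).

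Of 26 tested regulators of p53, 7 were higher and 2 lower with 13 libraries, a share of higher calls near the 23.6% of all tested genes. Of 25 tested with 10 libraries, 2 were higher and 1 lower, both shares below the 22.3% and 21.3% of all tested genes, and the medians were 0.26 and -0.07. The kinase gene Hipk2, whose product phosphorylates p53, was higher in both sets (0.78 and 0.92, adjusted p = 0.00146 and 0.000428), as was the acetyltransferase gene Crebbp (1.01 and 0.42, adjusted p = 0.00605 and 0.00405). Its relative Ep300 was higher with 13 libraries (0.67, adjusted p = 0.0148) and at 0.23 (adjusted p = 0.113) with 10, where it passed with library totals (0.48, adjusted p = 0.00487) and without wild type 2 (0.27, adjusted p = 0.0464). Those called lower, named after their values were seen, were the ubiquitin ligase genes Rchy1 (-0.27) and Cop1 (-0.31) with 13 libraries and Ppp1r13l, an inhibitor of p53, with 10 (-0.36, adjusted p = 0.0183).

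Cell cycle genes that p21 is known to hold down were mostly higher in the knock-in, as was Cdkn1a, and a link between them was not tested. The 3 named at the smallest p had their highest means in knock-in 4, 5 and 6. Of 14 tested members 13 libraries gave 13 higher and 0 lower, and 10 libraries gave 9 higher and 0 lower, all 9 of them called in both sets. The mitotic cyclin gene Ccnb1 was at 0.759 ± 0.198 CPM in wild type (SD, n = 6) and at a mean of 1.61 CPM in knock-in 1, 2, 3 and 7 and 5.39 CPM in knock-in 4, 5 and 6, with log2 fold changes of 2.10 and 1.10 (adjusted p = 0.00225 and 0.00257). E2f1, a factor that drives entry into S phase, had 2.04 and 1.15 (adjusted p = 0.00313 and 0.00101) and the mitotic kinase gene Cdk1 1.55 and 0.63 (adjusted p = 0.00454 and 0.0226), a call that was lost with 10 libraries without knock-in 1 or 7 (0.63 and 0.45). The list's median was 2.25 with 13 libraries and 0.82 with 10. Mki67, named after its values were seen, instead had the larger change with 10 libraries (0.66 and 0.88, adjusted p = 0.0135 and 0.00144). In knock-in 4, 5 and 6 the sum of 6 epithelial markers was 2364 to 3628 CPM, against 9.92 to 35.1 CPM in the other 10 libraries, and 4 of 4 tested epithelial markers rose with 13 libraries and 0 with 10. In knock-in 1, 2, 3 and 7 the sum of 7 macrophage markers was 535.7 to 805 CPM, against 345 to 426 CPM in wild type, and all 7 rose with 10 libraries. The sum of 7 fibroblast markers was 6171 to 7907 CPM there, against 4164 to 5802 CPM in wild type. No marker of these 3 lists but Epcam was listed at 0 in any library, and the part of these cells in the changes of the p53 genes was not tested.

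Of 13 other cyclins, cyclin-dependent kinases and inhibitors, 4 were higher and 2 lower with 13 libraries, and of the 12 tested with 10 libraries 3 were higher and 1 lower. Ccnd1, cyclin D1, was higher (0.63 and 0.58, adjusted p = 0.000835 and 0.00234), as was Cdkn2b, which encodes the inhibitor p15 (2.31 and 0.96, adjusted p = 0.00967 and 0.0173), which with 13 libraries was lost with an indicator for knock-in 4, 5 and 6 (0.96, adjusted p = 0.124). Cdkn1c, the p57 relative of p21, was lower (-0.57 and -0.40, adjusted p = 0.00501 and 0.0116), a call lost in both sets with library totals (-0.31 and -0.14). Of the rest, named after their values were seen, Cdk4 (0.45) and Cdkn2a (3.48) were higher and Cdkn2d (-0.42) lower with 13 libraries only, and Ccnd2 was higher with 10 (0.69). Cdkn2a was too low to be tested with 10 libraries.

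Around the sestrins, 17 genes of the nutrient-sensing arm of mTORC1 gave 2 higher and 1 lower with 13 libraries, and 3 higher and 3 lower with 10. The arginine sensor gene Castor1 rose by 1.06 and 0.92 (adjusted p = 0.000376 and 0.000187), and the third sestrin, Sesn3, by 0.43 and 0.53 (adjusted p = 0.0321 and 0.00835), a call lost with 13 libraries without knock-in 7 (0.35). Rragd, a Rag GTPase gene, fell by 0.75 and 0.67 on the log2 scale (adjusted p = 0.000784 and 0.000759), calls lost with limma on log2(TPM + 1) (-0.31 and -0.27). The others, named after their values were seen, were called with 10 libraries only, Castor2 higher (0.26) and Nprl2 and Mios lower (-0.40 and -0.59). Of 13 tested genes of the ATF4 stress response, to which Sesn2 also belongs, 13 libraries gave 9 higher and 1 lower and 10 libraries 7 higher and 1 lower. Nupr1, a stress-induced chromatin protein gene, rose by 2.20 and 1.57 (adjusted p = 0.000464 and 8.14e-05) and the factor gene Atf3 by 1.53 and 1.57 (adjusted p = 0.000400 and 0.00102). The 1 that fell was the lipoprotein receptor gene Vldlr (-1.28 and -1.17, adjusted p = 3.79e-05 and 0.000106). The ATF4 composite motif TGATGNAAN, searched on both strands, was in 0 of the 13 promoter windows and in 3.95% of all windows. The NRF2 motif TGACNNNGC was in 3, those of Trp53, Sesn2 and the downstream start of Cdkn1a, and in 12.4% of all windows.

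**Figure D5:**
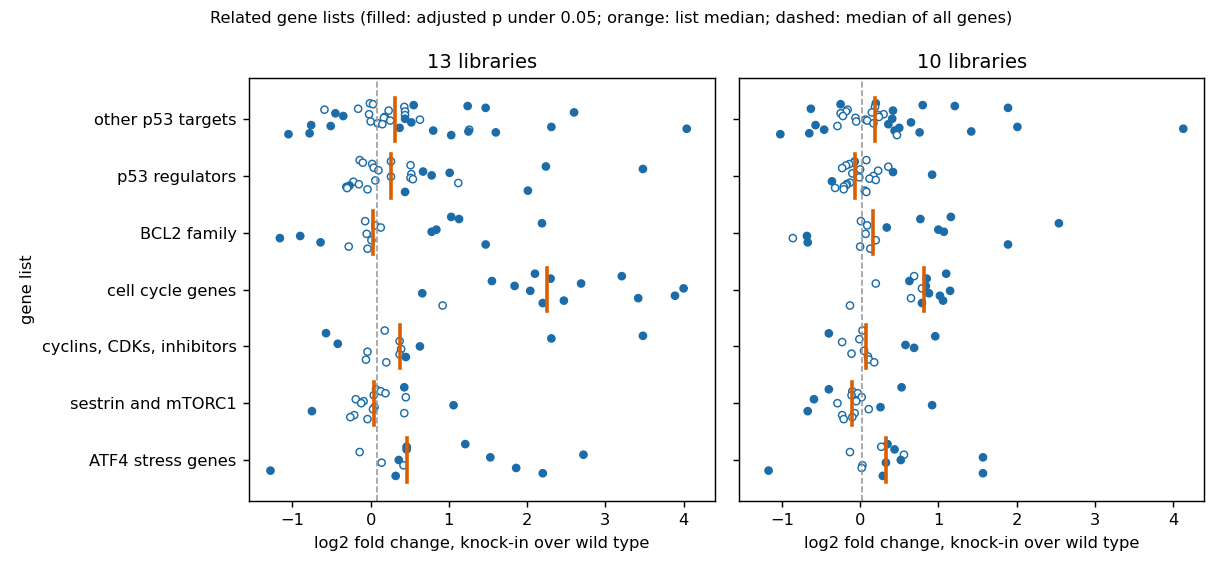
Log2 fold change of each tested gene in 7 related lists with 13 libraries (left) and 10 libraries (right), filled where the adjusted p was under 0.05, with orange lines at list medians and a dashed line at the median of all tested genes. The cell cycle genes lie to the right of the dashed line in most cases, with a median of 2.25 on the left and 0.82 on the right.

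The authors' tables also give a gene length that follows the mix of transcripts in each library. It was the same in all 13 libraries for Ccng1, Phlda3, Bax and Sesn2. For Sesn1, with 2 starts in RefSeq, it was 2656 to 2669 bases in wild type, 2652 to 2674 in knock-in 1, 2, 3 and 7 and 2667 to 2701 in knock-in 4, 5 and 6. For Bbc3, with 3 starts, it was 1669 to 1870 bases in wild type and 1638 to 1764 in knock-in, and the groups overlapped for both genes.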

How the data were processed

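Polyadenylated RNA of mouse right ventricles was sequenced as stranded libraries, per the labels' protocols. DRAGEN (no version) and GRCm39 (mm39) are named in the submitters' processing notes. For annotation, strand setting and filters, nothing is given in the sources used here. The authors deposited for each of 13 libraries, per the file headers, estimated counts of reads per gene, TPM and gene lengths.

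Estimated counts were rounded, filtered with filterByExpr, scaled by TMM and tested with edgeR's quasi-likelihood F test (edgeR 4.0.16, R 4.3.3, robust, no covariate), with Benjamini-Hochberg adjustment over all tested genes. SE is the size of the log2 fold change over the square root of F. CPM uses the TMM scaling of 13 libraries. For ratios of TPM, group labels were permuted exactly. The 10 genes, the lists and the separate fit of 10 libraries were chosen with earlier results of these data known. Genes named from each list were the 3 called with 13 libraries at the smallest p, except where the text says otherwise. All 10 genes passed the filter in both sets.

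Totals were 14498336 to 29848597 reads. On simulated counts with 193 of 14199 genes changed, the test recovered 58.9% of 2-fold and 20.4% of 1.5-fold changes with 13 libraries. With 10 libraries and 191 of 14203 genes changed, it recovered 85.4% and 51.6%. In the data 6502 and 6340 genes were called. The adjustment depends on how many genes change, so these shares need not hold for the fits of the data. Alternatives were DESeq2 (1.42.0) and its size factors, library totals, limma-voom and limma on log2 TPM (limma 3.58.1), 2 other filters, an indicator for knock-in 4, 5 and 6, a replicate block and each library left out. In GENCODE vM21 (GRCm38) exons of Cdkn1a overlap an opposite-strand and exons of Bax a same-strand transcript that the read tables do not list.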

Additional observations from a re-analysis of the deposited data

Results flagged for a closer look

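Knock-in 2 stood far from the other knock-in libraries for 3 of the 10 genes. Cdkn1a was at 136 CPM there, against 32.3 to 69.8 CPM in the other 6 and 64.0 to 69.8 CPM in knock-in 1, 3 and 7, and it stood out both among 7 and among 4 libraries. Trp53inp1 was at 92.9 CPM, against 34.9 to 57.1 CPM, and Sesn1 at 214 CPM, against 91.3 to 132 CPM. The log2 ratio of Mdm2 to Mdm4 was 1.30 in knock-in 2 and 0.95 to 1.09 in the other 6. In each case the gap to the nearest library was large for the range of the group (above Dixon's critical value). Of 39 groups looked at, 5 held such a library, where chance gives about 1 in 20 for separate groups. All 5 flags were of knock-in 2, and the groups share libraries, so the count cannot be compared with that rate.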

How the results depend on the processing

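Of the 10 genes, Cdkn1a, Phlda3, Bax, Sesn2 and Ccng1 kept their direction and call with 13 libraries under all 23 alternatives, and Cdkn1a and Phlda3 did so with 10 libraries under all 19. The direction of Mdm2 with 13 libraries turned with library totals (0.07), limma-voom (0.02), log2(TPM + 1) (0.22), log2(TPM + 0.1) (0.23) and the indicator for knock-in 4, 5 and 6 (0.06). That of Mdm4 turned under the same settings (0.10, 0.07, 0.28, 0.29 and 0.08), and that of Sesn1 with 10 libraries with log2(TPM + 1) and log2(TPM + 0.1) (0.04 in both). None of these passed the threshold. Leaving out 1 library gave 5 to 8 called genes of 10 with 13 libraries and 5 to 7 with 10. The share of higher genes among all calls was 52.9% and, with library totals, 78.6%, and with 10 libraries 51.1% and 79.8%.

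Whether replicate numbers pair the libraries is not in the labels, and correlations over so few pairs cannot decide it. Same-numbered deviations correlated at -0.113 to 0.085 over 6 pairs with 13 libraries, where differently numbered ones had -0.218 to 0.146. With 10 libraries the same-numbered ones correlated at -0.036 to 0.238 over 3 pairs. There 2 pairs were above 0.1 (0.238 and 0.128), but wild type 1 correlated more with knock-in 7 (0.262) than with knock-in 1. With the replicate block the 13 libraries called 5 of the 10 genes, and the 10 libraries, which share 3 numbers, called 2, Cdkn1a and Phlda3, and 2785 of all genes against 6340. Within replicate numbers 1 to 6 the replicate block gave differences of -0.62 for Bax to Bcl2 (exact permutation p = 0.0312, the smallest possible), 1.53 for Sesn2 to Sesn1 (exact permutation p = 0.0312) and -0.07 for Mdm2 to Mdm4 (exact permutation p = 0.406). At the spread of these libraries 20.4% of 1.5-fold changes were recovered in simulated counts with 13 libraries and 51.6% with 10, where the common dispersion was 0.0276 against 0.0974.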
